A study of Mus musculus with 9 samples.

Results

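The interleukin-6 (IL-6) family was followed in mouse 3T3 fibroblasts through 9 genes, the ligands Il6, Lif, Il11 and Clcf1 and the receptor genes Il6ra, Il6st, Lifr, Osmr and Il11ra1. A gene entered by its symbol: the array annotation had to give that symbol alone, and the row with the highest mean would have been taken had there been more than 1. Of the 9, 8 were measured, each by 1 row, among 19698 genes in all, and Il11ra1 was not analysed here. The cells, an immortalised embryonic fibroblast line, fell into 3 groups of 3 arrays: control cells without stimulation, control cells treated with mouse TNF-alpha at 5 ng/ml for 1 h, and cells with knockdown of Brg1 and Brm given the same TNF treatment. The knockdown cells stably expressed a single short hairpin RNA, driven by the mouse U6 promoter of a retroviral vector and directed at a sequence shared by Brg1 and Brm, the ATPases of the BAF nucleosome-remodelling complex, and were sorted for high GFP as a transduced population. Nothing used here states whether the control cells carried a vector. Unstimulated knockdown cells were not analysed here, so a change in the knockdown before TNF and a change in the response to TNF cannot be told apart. In these bulk samples fewer cells expressing a gene and less RNA per cell cannot be told apart either.

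Most IL-6 family cytokines, among them all the ligands measured here, signal through receptor complexes that contain gp130, the product of Il6st. Beside gp130 these complexes hold other chains, which differ among ligands. Such chains include the IL-6 receptor from Il6ra, the IL-11 receptor, the LIF receptor from Lifr and the oncostatin M receptor from Osmr. Within the complexes gp130 activates JAK kinases and the transcription factor STAT3. Fibroblasts are a classical source of IL-6 and LIF, whose genes respond to inflammatory stimuli such as TNF, while gp130 and its partner chains let the same cells respond to these cytokines.

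The promoter windows of Il6 and Lif are shown because these members were called higher after TNF when the replicate number was taken into account, and that of Il6st for contrast. Clcf1 had no promoter window to examine, so all statements on windows leave it out. Sequences are from RefSeq, build GRCm38.p6, and run from 250 bases before to 50 bases after the annotated start. In the first pair capitals mark matches to the motifs described below, and in Il6st they mark CpG dinucleotides. The windows are chr5:30012864-30013163 (plus strand) for Il6, chr11:4257318-4257617 (plus strand) for Lif and chr13:112463820-112464119 (plus strand) for Il6st.
Il6: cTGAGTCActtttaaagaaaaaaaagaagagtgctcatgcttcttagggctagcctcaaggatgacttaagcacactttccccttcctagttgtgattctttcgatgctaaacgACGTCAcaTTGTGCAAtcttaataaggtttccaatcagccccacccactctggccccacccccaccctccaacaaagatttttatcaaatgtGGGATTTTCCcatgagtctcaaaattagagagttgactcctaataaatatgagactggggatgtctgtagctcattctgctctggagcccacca
Lif: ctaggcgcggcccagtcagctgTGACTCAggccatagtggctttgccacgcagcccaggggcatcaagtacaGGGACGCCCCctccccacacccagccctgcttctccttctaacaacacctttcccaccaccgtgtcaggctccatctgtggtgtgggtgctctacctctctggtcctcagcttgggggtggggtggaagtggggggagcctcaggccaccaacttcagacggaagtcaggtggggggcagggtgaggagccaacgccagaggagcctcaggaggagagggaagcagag
Il6st: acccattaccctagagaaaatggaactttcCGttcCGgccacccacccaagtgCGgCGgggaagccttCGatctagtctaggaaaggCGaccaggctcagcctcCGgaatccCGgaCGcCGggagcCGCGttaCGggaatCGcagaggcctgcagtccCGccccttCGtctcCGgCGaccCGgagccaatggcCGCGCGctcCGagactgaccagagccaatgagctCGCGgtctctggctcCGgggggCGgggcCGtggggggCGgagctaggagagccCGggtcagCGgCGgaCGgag

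Motifs of NF-kB, AP-1, CRE and C/EBP, which inducible promoters often carry, were searched on both strands, together with a STAT motif, a TATA box and a GC box. The Il6 window held 1 match to the NF-kB consensus, GGGATTTTCC, beginning 44 bases before the start. It also held a CRE match (TGACGT) beginning 136 bases before the start, a C/EBP match (TTGCNNAA) beginning 128 bases before it, both on the minus strand, and an AP-1 match (TGANTCA) beginning 249 bases before it. The Lif window held an NF-kB match, GGGACGCCCC, beginning 178 bases before the start and an AP-1 match beginning 228 bases before it. None of these matches overlapped another. Of 32851 promoter windows of this length, 8.46% held the NF-kB consensus, 7.81% the AP-1, 7.51% the CRE and 10.8% the C/EBP pattern.

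Among the other members' windows, 0 held the NF-kB consensus, and an AP-1 match lay in the second Il11 window and in the Osmr window. The GC box (GGGCGG), found in 35.7% of all windows, occurred in the windows of Il11, Il6st, Osmr and Il11ra1 and in the first Lifr window, but not in those of Il6, Lif and Il6ra. The STAT motif (TTCNNNGAA, 8.3% of all windows) and the TATA box (TATAAA, 13.6%) matched in none of the 11 windows of the 8 members examined. A match is a run of letters only, and none was tested for binding.

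**Figure D1:**
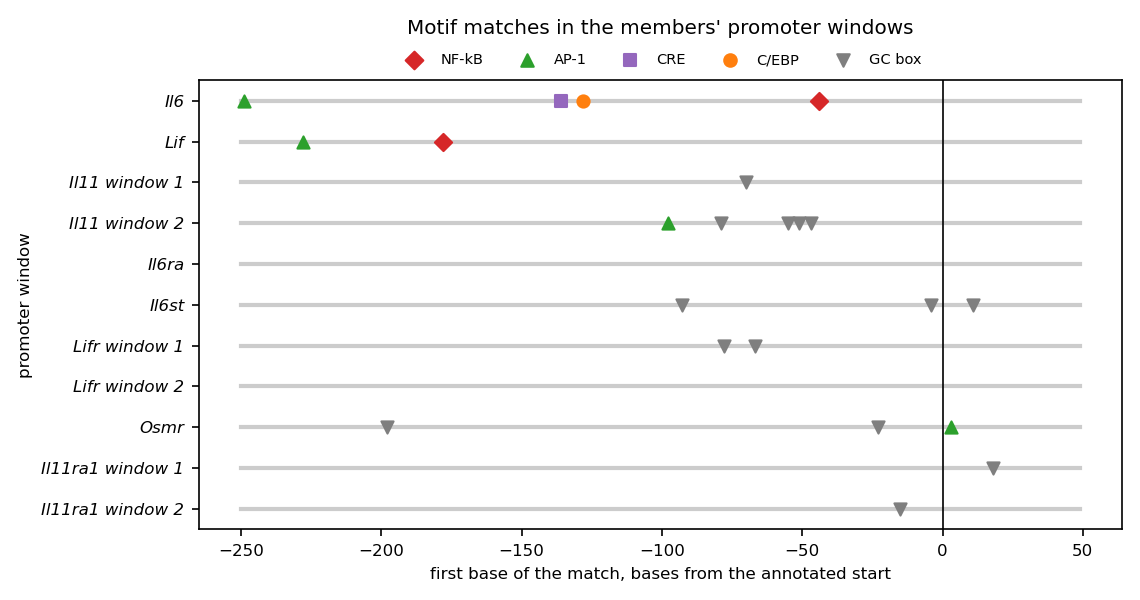
Motif matches along the 11 promoter windows of 8 members (rows), placed by the first base of each match relative to the annotated start (x axis, in bases, the vertical line at 0). NF-kB matches appear in the Il6 and Lif rows alone, 44 and 178 bases before the start.

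The windows varied in base composition. The methods of the study define a CpG island promoter by a GC content above 50% and an observed to expected CpG ratio above 0.6, taken there over 200 bases on either side of the start. Over the windows used here, Il6 had 44.0% GC and a CpG ratio of 0.21, and Lif 63.7% and 0.23. The Il11 windows had 56.7% and 65.0% GC with CpG ratios of 0.04 and 0.45. None of these 4 windows of Il6, Lif and Il11 passed both limits. The windows of Il6ra (66.0%, 0.77), Il6st (68.3%, 0.94) and Osmr (66.0%, 0.71) and the first Lifr window (81.3%, 1.07) passed both, whereas the second Lifr window (53.3%, 0.19) and both Il11ra1 windows (CpG ratios 0.27 and 0.13) did not. Of all windows 33.3% passed both, and the median CpG ratio was 0.38.

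**Figure D2:**
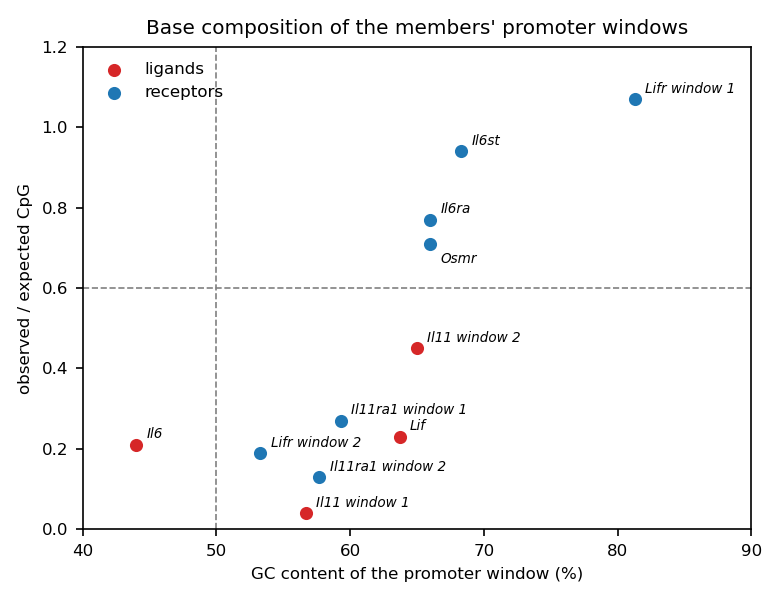
GC content in percent (x axis) against the observed to expected CpG ratio (y axis) of the 11 promoter windows, ligands in red and receptors in blue, with dashed lines at 50% and 0.6. The 4 windows of Il6, Lif and Il11 lie below the line at 0.6, and Il6 alone lies below 50% GC.

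Levels below are RMA log2 signals, so a difference of 1 is a doubling of signal, and they are compared between groups of arrays for 1 gene at a time. Il6 was read by transcript cluster 10520452, Lif by 10373918 and Il11 by 10559667. The medians of the arrays lay between 7.77 and 7.832. Differences were tested with limma over all 19698 genes and called at a Benjamini-Hochberg adjusted p under 0.05. Replicates were made on different days, and arrays of the same replicate number deviated together from their group means. A second fit therefore carried the replicate number as a block, and a call that it alone gave is named as a blocked call. The TNF and knockdown comparisons share the TNF-treated control arrays, so their values are given side by side and are not independent. The hairpin's targets were examined first. Smarca4, which encodes Brg1, had a mean of 11.57 ± 0.04 (SD, n = 3) in control cells with TNF and of 10.46 ± 0.19 in knockdown cells and so fell by 1.11 ± 0.09 (SE, adjusted p = 0.00362). Smarca2, which encodes Brm, stood at 9.57 ± 0.22 and 9.21 ± 0.15 and was not called (-0.36 ± 0.20, adjusted p = 0.734, blocked 0.129). By quantitative RT-PCR, a measure other than the array signal, the study reports that the hairpin lowered both transcripts several-fold. Of 10 listed fibroblast markers, 0 had a mean below the first quartile of all genes in any group. Of 9 measured leukocyte markers, 3 or 4 lay below it in each group. Their means ran from 5.65 (Adgre1) to 7.62 (Cd3e) over all groups, with 6.26 to 6.34 for the pan-leukocyte marker Ptprc. The fibroblast marker Thy1, at 7.52, 7.47 and 7.43 in unstimulated control, TNF-treated control and knockdown cells, lay within that leukocyte range.

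TNF treatment was accompanied by higher Il6 and Lif within 1 h. Both were blocked calls, and no other measured member was called in either fit. Without the block limma called 0 of 8 members, against 0.137% of all genes called higher and 0% called lower. At an unadjusted p under 0.05 limma gave 2 of 8, against 3.07% of all genes. With the block 2 of 8 were called higher and 0 lower, against 0.366% and 0.0305% of all genes. The methods' t-test with a difference above 0.35, unadjusted, also gave Il6 and Lif, against 107 of 19698 genes higher and 8 lower. After adjustment it gave neither.

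Il6, the cytokine that gives the family its name, stood at 10.07, 9.26 and 8.88 in unstimulated arrays 1, 2 and 3. It stood at 11.61, 11.54 and 10.50 in the TNF-treated control arrays. Every TNF-treated control array lay above every unstimulated array, and array 3 was the lowest of each group. The difference was 1.81 ± 0.37, or 3.52-fold (adjusted p = 0.279, blocked 0.00349). Within replicate numbers it was 1.54, 2.28 and 1.62, higher in 3 of 3.

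Lif, which encodes leukaemia inhibitory factor, stood at 8.76, 8.14 and 8.72 in the unstimulated arrays. It stood at 11.40, 9.85 and 10.88 in the TNF-treated control arrays. The groups did not overlap, and array 2 was the lowest in both. The difference was 2.17 ± 0.51, or 4.51-fold (adjusted p = 0.532, blocked 0.00653), and within replicate numbers it was 2.65, 1.71 and 2.17. Il6 and Lif were thus the measured members whose TNF-treated arrays all lay above the unstimulated ones, as was seen in 3.19% of all genes, and 0 members were separated downward, against 2.78%. Whether TNF changed Il6 and Lif by different amounts was examined within arrays, a comparison chosen after their values were seen. The change of Il6 minus that of Lif was -1.11, 0.57 and -0.55 by replicate number (exact permutation test over arrays, two-sided p = 0.8).

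The other ligands were not called. Il11, a cytokine of stromal cells, stood at 7.98, 7.74 and 7.87 without and at 8.83, 7.87 and 8.17 with TNF. The groups overlapped. The difference was 0.43 ± 0.24 (adjusted p = 1.00, blocked 0.755), and within replicate numbers it was largest in number 1 (0.86, against 0.13 and 0.30). Clcf1, cardiotrophin-like cytokine factor 1, differed by 0.17 ± 0.10 (adjusted p = 1.00, blocked 0.683), from 10.22 ± 0.17 to 10.39 ± 0.14. Both were higher in 3 of 3 replicate numbers, by 0.18, 0.20 and 0.11 for Clcf1. This did not set the ligands apart. The receptor gene Osmr was also higher in 3 of 3 (0.13, 0.06 and 0.08) and Lifr lower in 3 of 3, and the share of all genes with such agreement is not given here.

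The 4 measured receptor genes differed by -0.11 to 0.09 after TNF, and each had an adjusted p of 1.00 in both fits. Il6st stood at 12.76, 13.00 and 12.41 without and at 12.72, 12.93 and 12.43 with TNF, so that array 3 was low and array 2 high in both groups. Osmr went from 12.39 ± 0.35 to 12.48 ± 0.36, Lifr from 11.11 ± 0.51 to 11.02 ± 0.57 and Il6ra from 9.55 ± 0.08 to 9.44 ± 0.07. The 95% intervals of these differences were -0.39 to 0.33 for Il6st, -0.43 to 0.61 for Osmr, -0.85 to 0.68 for Lifr and -0.25 to 0.04 for Il6ra. The wide interval of Lifr went with array 3, at 10.53 and 10.39 against 11.20 or more in arrays 1 and 2.

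**Figure D3:**
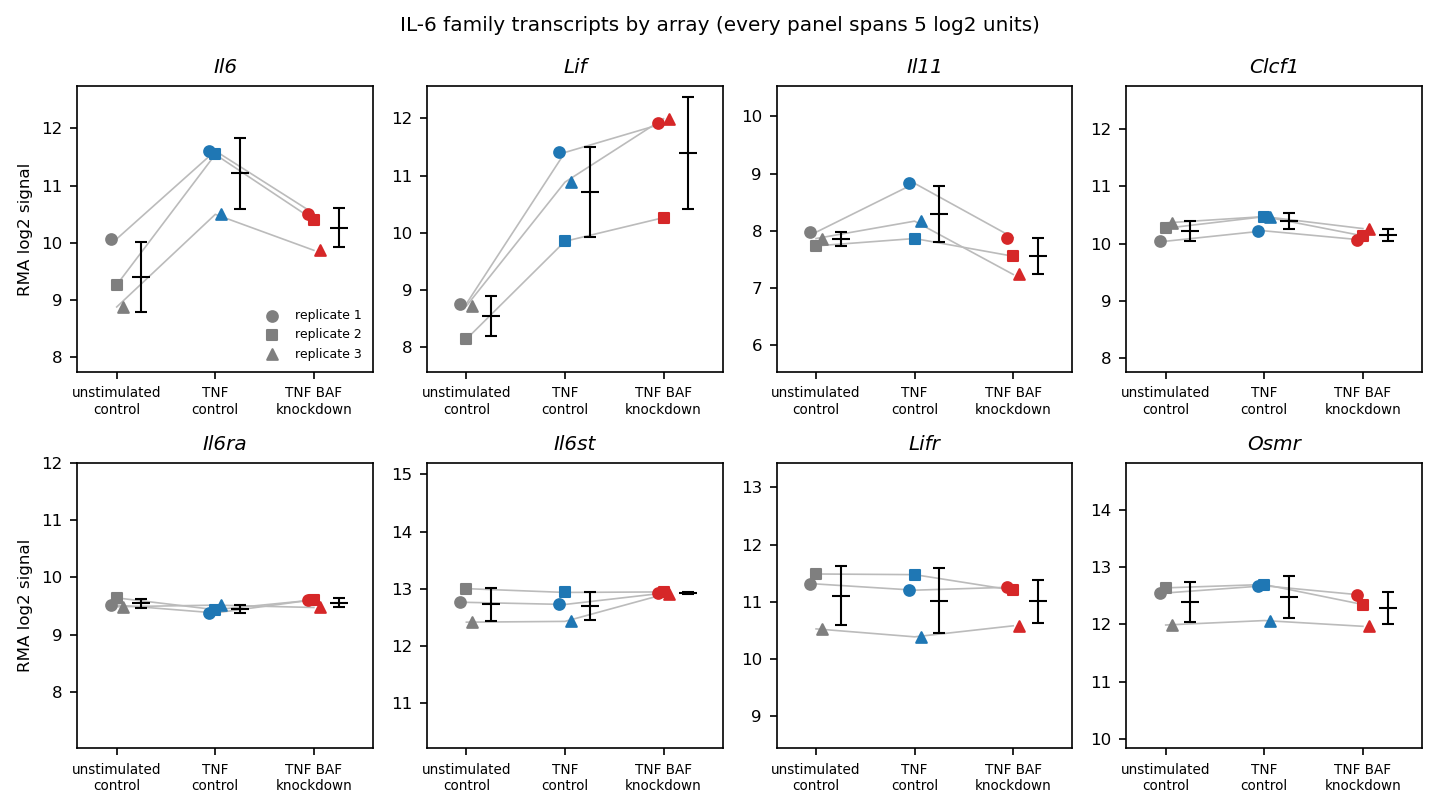
RMA log2 signal (y axis, each panel spanning 5 log2 units and not starting at 0) of the 8 measured members in the 3 groups (x axis), 1 point per array with its shape giving the replicate number, grey lines joining arrays of the same number, and black bars at the mean ± SD (n = 3). The mean of Il6 is highest in TNF-treated control cells, at 11.21. That of Lif is highest in knockdown cells, at 11.39, but its difference from TNF-treated control cells was not called and the arrays overlap. The group means of each receptor gene lie within 0.23 of each other.

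With BAF knockdown, Il6 and Il11 were lower in TNF-treated cells, both as blocked calls. Without a call, Clcf1 and Osmr were lower, and Lif and Il6st higher, in 3 of 3 replicate numbers. Without the block limma called 0 of 8 members, against 0.0355% of all genes called higher and 0.102% called lower. An unadjusted p under 0.05 was reached by 3 of 8 (Il6, Il11 and Clcf1), against 8.43% of all genes. The methods' t-test, which the study states for induction, was extended here to the knockdown with a minimum difference of 0.3. It gave 0 of 8, against 146 of 19698 genes higher and 287 lower. The methods define BAF dependence by a difference beyond 0.3 with no test, which Il6 and Il11 passed downward and Lif upward, against 3.27% and 1.87% of all genes. With the block 0 of 8 were called higher and 2 of 8 lower, against 0.98% and 2.33% of all genes. The groups of arrays overlapped for all 8 members, whereas 4.63% of all genes were separated upward and 5.47% downward.

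Il6 stood at 10.51, 10.39 and 9.87 in knockdown arrays 1, 2 and 3, between its levels in the other groups. Each lay below the TNF-treated control array of its own number, but the groups overlapped, since knockdown array 1 was level with TNF-treated control array 3 (10.50). The difference was -0.96 ± 0.37, or 1.94-fold lower (adjusted p = 0.49, blocked 0.0178), and within replicate numbers it was -1.10, -1.15 and -0.63. Against unstimulated control cells the knockdown arrays were higher by 0.86 ± 0.37 (adjusted p = 0.407, blocked 0.0191), a difference that was 47.2% of the log2 rise in control cells. That share takes its baseline from unstimulated control cells. It does not measure a rise within knockdown cells, whose unstimulated level was not analysed here. By replicate number that share was 28.8%, 49.7% and 61.2%. The order of Il6 was thus unstimulated control, TNF-treated knockdown, TNF-treated control, with each step a blocked call and none called without the block.

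Lif stood at 11.91, 10.26 and 11.99 in the knockdown arrays, with array 2 low as in the other groups. Its difference from TNF-treated control cells was 0.68 ± 0.51 (95% interval -0.49 to 1.84, adjusted p = 0.848, blocked 0.181), and within replicate numbers it was 0.51, 0.41 and 1.11. It was 1.24 without knockdown array 2 and 1.02 without TNF-treated control array 1, but lower when TNF-treated control array 2 (0.25) or knockdown array 1 (0.42) or 3 (0.38) was left out. Array weights gave 0.41. Against unstimulated cells Lif was higher by 2.85 ± 0.51, or 7.22-fold (adjusted p = 0.042, blocked 0.000517). It was the sole member called in that comparison without the block, where 0.518% of all genes were called higher and 0.599% lower, and Il6 joined it with the block, where 1.98% and 3.36% were. The unblocked call was lost without any 1 of 7 arrays (adjusted p = 0.062 to 0.175) and kept without TNF-treated control array 2 or knockdown array 2.

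The changes of Il6 and Lif with the knockdown were compared within arrays. The change of Il6 minus that of Lif was -1.61, -1.56 and -1.74 by replicate number, a mean of -1.64 ± 0.09 (SD, n = 3). The exact permutation test over arrays gave a two-sided p = 0.2, where 0.1 is the smallest that 3 arrays against 3 allow. The exact sign-flip test over replicate numbers gave p = 0.25, the smallest it allows, so neither test could pass 0.05 at this number of arrays. This pair of genes was also chosen after their values were seen.

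Il11 stood at 7.88, 7.56 and 7.24 in the knockdown arrays. Knockdown array 1 was level with TNF-treated control array 2 (7.87), where the groups overlapped, and the other knockdown arrays lay below all TNF-treated control arrays. The difference was -0.73 ± 0.24, or 1.66-fold lower (adjusted p = 0.388, blocked 0.0442), at -0.95, -0.31 and -0.93 within replicate numbers. Against unstimulated cells it was -0.30 ± 0.24 (adjusted p = 0.686, blocked 0.364). Clcf1 stood at 10.06, 10.13 and 10.26, a difference of -0.24 ± 0.10 from TNF-treated control cells (adjusted p = 0.581, blocked 0.063) and of -0.07 ± 0.10 from unstimulated cells (adjusted p = 0.843).

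Among the receptors, differences with the knockdown ran from -0.20 to 0.23, and the lowest adjusted p was 0.71, or 0.185 with the block. Il6st stood at 12.92, 12.94 and 12.90, each above the TNF-treated control array of its number (0.23 ± 0.16, 95% interval -0.13 to 0.58). Osmr was lower in 3 of 3 replicate numbers (-0.20 ± 0.23, interval -0.72 to 0.31, blocked adjusted p = 0.185). Il6ra differed by 0.12 ± 0.06 (interval -0.03 to 0.26) and Lifr by -0.01 ± 0.34 (interval -0.77 to 0.75), the latter with knockdown arrays at 11.26, 11.20 and 10.58.

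**Figure D4:**
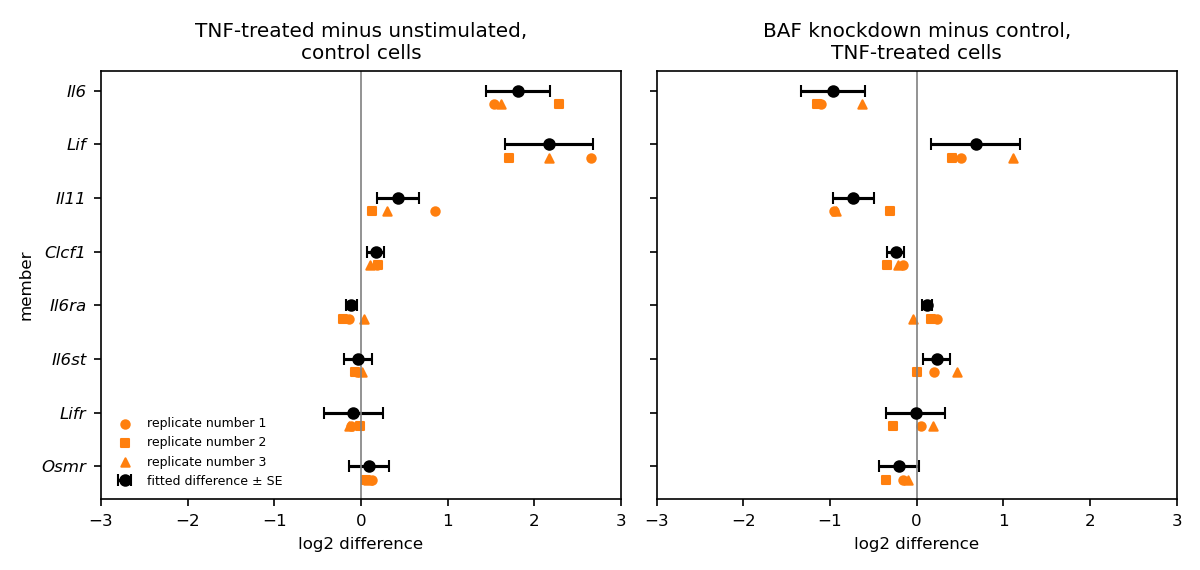
Log2 differences (x axis) of the 8 measured members (y axis) after TNF in control cells (left) and with BAF knockdown in TNF-treated cells (right), black points at the fitted difference with bars of 1 standard error and orange points at the difference within each replicate number. The TNF differences of Il6 (1.81) and Lif (2.17) are both above 0, and with the knockdown that of Il6 is -0.96 and that of Lif, not called, 0.68.

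The members' blocked calls depended on the replicate numbers included. When all arrays numbered 1 were left out, the blocked adjusted p of Il6 was 0.23 for TNF and 0.269 for the knockdown, that of Lif 0.661 for TNF, and that of Il11 0.412 for the knockdown. When those numbered 3 were left out, the same values were 0.0815, 0.104, 0.134 and 0.299. Without those numbered 2 all 4 calls held (0.0166, 0.0358, 0.00572 and 0.032), and Lif was also called higher in the knockdown (0.81, 0.0479). The sizes moved less, from 1.58 to 1.95 and -1.12 to -0.86 for Il6, from 1.94 to 2.41 for Lif with TNF, and from -0.94 to -0.62 for Il11 with the knockdown. Against unstimulated cells, the blocked adjusted p without numbers 1, 2 and 3 was 0.153, 0.0421 and 0.143 for Il6 and 0.0834, 0.000878 and 0.0212 for Lif.

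The rest of the pathway was examined through 5 lists with 66 of 74 genes measured. The lists were chosen with earlier results of these data known, so their counts are a description, and no list was tested as a set. Of all genes, the blocked fit called 0.366% higher and 0.0305% lower after TNF, and 0.98% and 2.33% with the knockdown. Against unstimulated cells limma called 0.518% higher and 0.599% lower, and 1.98% and 3.36% with the block. The methods' t-test, unadjusted, gave 107 of 19698 genes higher and 8 lower after TNF. Its extension to the knockdown gave 146 higher and 287 lower. Of 9 further ligand and receptor genes measured of 12, limma called 0 after TNF in either fit (0 at an unadjusted p under 0.05 and 0 with the methods' t-test), with Ebi3 (-0.09) and Il27ra (0.09) at the ends, and the list median was 0.02 against 0.00 for all genes. Osm, the oncostatin M gene whose receptor Osmr encodes, had means of 6.22, 6.24 and 6.21 in the 3 groups. With the knockdown, Cntfr, the receptor for ciliary neurotrophic factor that also binds the Clcf1 product, was lower at 7.88 ± 0.15 against 8.36 ± 0.07 (-0.48 ± 0.09, adjusted p = 0.0941, blocked 0.00347), and 8 of 9 were not called. The next largest difference was that of the cardiotrophin gene Ctf1 (0.09). Cntfr was also called against unstimulated cells (-0.50, adjusted p = 0.0395), where Ebi3 followed at -0.13.

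Of 12 measured signal transducers of 16, 0 were called in any of the comparisons with or without the block. The kinase gene Jak2 had the largest TNF difference (0.40 ± 0.19, adjusted p = 1.00, blocked 0.917), and Stat3, the main transcription factor downstream of gp130, differed by 0.07 ± 0.15 after TNF and by -0.23 ± 0.15 with the knockdown. The adaptor Shc1 differed by -0.19 after TNF and the kinase gene Map2k1 by -0.26 with the knockdown. Against unstimulated cells Jak2 (0.38) and Map2k1 (-0.28) lay farthest from 0. Without adjustment 0 of these 12 genes had a p under 0.05 after TNF and 3 with the knockdown, against 3.07% and 8.43% of all genes. The methods' t-test gave 0 after TNF, and its extension to the knockdown gave 0.

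Of 11 negative regulators and receptor-shedding proteases, limma called 0 without the block in any comparison. An unadjusted p under 0.05 was reached by 2 after TNF and 2 with the knockdown, against 3.07% and 8.43% of all genes. The methods' t-test gave 1 after TNF, and its extension 0 with the knockdown. The blocked fit called Cish, a STAT-induced inhibitor of cytokine receptors, higher after TNF, from 7.86 ± 0.23 to 8.33 ± 0.09 (0.48 ± 0.12, blocked adjusted p = 0.0238). Socs3, the principal feedback inhibitor of gp130, stood at 10.21, 10.17 and 9.93 on average in the 3 groups and was not called, nor was Socs1 (0.27 after TNF, blocked 0.202). Socs2 had the largest difference with the knockdown (0.71 ± 0.20, adjusted p = 0.279, blocked 0.0595), followed by Cish (-0.29 ± 0.12, blocked 0.0507). Socs2 was a blocked call against unstimulated cells (0.87, 0.0199), as was the phosphatase gene Ptpn2 (0.23, 0.041).

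Of 21 genes known as STAT3 targets, 19 were above 0 after TNF, with a list median of 0.16 against 0.00 for all genes. The part of STAT3 in these differences was not tested. Junb, an AP-1 subunit that other signals also induce, was the only one called (0.77 ± 0.08, adjusted p = 0.00931). An unadjusted p under 0.05 was reached by 8 of the 21, against 3.07% of all genes, and 1 passed the methods' t-test. Fos had the next largest difference (0.71 ± 0.26, adjusted p = 1.00). With the knockdown limma called 0 without the block. Of the 21, 5 had an unadjusted p under 0.05, against 8.43% of all genes, and 2 passed the methods' t-test as extended here. The blocked fit called 4 lower and 0 higher, against 2.33% and 0.98% of all genes. The 4 were the acute phase genes Hp (-1.80 ± 0.48, blocked adjusted p = 6.72e-05) and Saa3 (-1.15 ± 0.37, 0.0059), the receptor gene Il4ra (-0.36 ± 0.21, 0.0212) and the angiogenic factor gene Vegfa (-0.33 ± 0.08, 0.0172). Hp stood at 10.45 ± 0.64 in TNF-treated control and 8.65 ± 0.70 in knockdown cells, and at 10.33 ± 0.77 without TNF. The median of the list with the knockdown was -0.05, so the other 17 genes were spread on either side of 0. Against unstimulated cells the blocked fit called Junb (0.61) and Bcl3 (0.40) higher and Hp (-1.68), Saa3 (-0.76) and Il4ra (-0.39) lower.

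Of 13 measured genes that control Il6 transcription or transcript stability, 11 were above 0 after TNF, with a median of 0.39 against 0.00 for all genes. An unadjusted p under 0.05 was reached by 9 of the 13, against 3.07% of all genes. The methods' t-test was passed by 6, against 107 of 19698 genes higher and 8 lower. Nfkbiz, an atypical IkB protein that promotes Il6 transcription, rose from 10.33 ± 0.15 to 11.23 ± 0.19 (0.91 ± 0.11, adjusted p = 0.0182), and Zfp36l2, which encodes an RNA-binding decay factor, rose by 0.39 ± 0.05 (adjusted p = 0.0412). The NF-kB subunit gene Nfkb2 was a blocked call (0.45, 0.0417). Zfp36 (0.93 ± 0.28, blocked 0.127), Rel (0.83 ± 0.17, blocked 0.108) and Zc3h12a, which encodes the ribonuclease Regnase-1 that degrades Il6 transcripts (0.79 ± 0.15, blocked 0.0503), were not called.

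With the knockdown the same list gave 0 limma calls without the block. Of its genes 2 had an unadjusted p under 0.05, against 8.43% of all genes, and the methods' t-test as extended here gave 1. The blocked fit called Zfp36l1, a relative of Zfp36l2, higher (0.33 ± 0.10, blocked adjusted p = 0.0411). Nfkbiz stood at 11.12 ± 0.08 in knockdown cells (-0.12 ± 0.11), Zc3h12a at 9.71 ± 0.30 (-0.04 ± 0.15) and Rela at 11.27 in both TNF-treated groups, and Arid5a, which stabilises Il6 transcripts, differed by -0.22 ± 0.09 (blocked 0.204). Against unstimulated cells 5 of the 13 were called higher (Nfkb2, Rel, Relb, Nfkbiz and Zfp36l2), against 0.518% of all genes. The blocked fit, which called 1.98% of all genes higher, added Zc3h12a, Zfp36 and Zfp36l1. Zfp36 (1.02) and Rel (0.97) had the largest differences. Beside the lower Il6 and Il11, the 10 fibroblast markers were all below 0 with the knockdown, with a median of -0.15 against 0.01 for all genes, and 3 were blocked calls: Col3a1 (-0.93), Pdgfra (-0.57) and S100a4 (-1.18). Their mean per array lay between 11.47 and 11.75 in TNF-treated control and between 11.16 and 11.35 in knockdown cells, and their part in the members' differences was not tested. The leukocyte list (medians of 0.01 after TNF and -0.02 with the knockdown) and the epithelial and endothelial list (0.03 and 0.02) had 0 calls by limma in either fit, 0 by the methods' t-test or its extension and 0 genes whose unadjusted p was under 0.05.

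**Figure D5:**
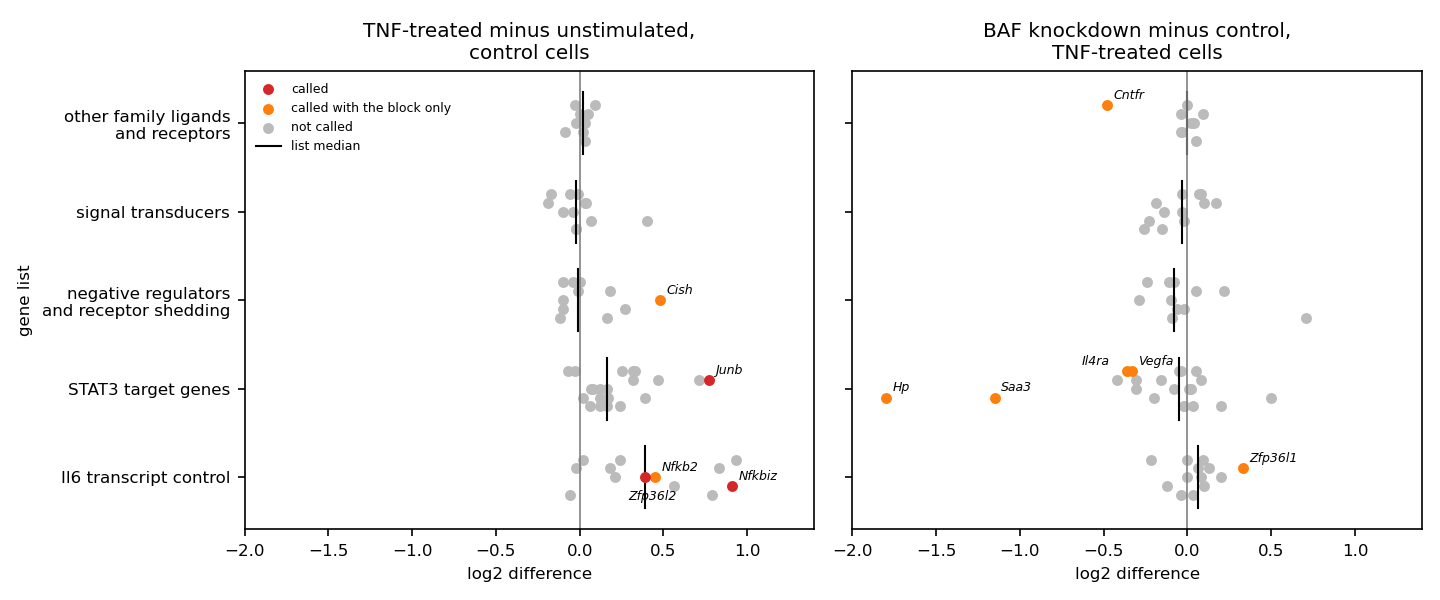
Log2 difference (x axis) of each measured gene of 5 IL-6 pathway lists (y axis) after TNF in control cells (left) and with BAF knockdown in TNF-treated cells (right), 1 point per gene coloured by its call, with a black line at the list median. After TNF the list of Il6 transcript control genes has its median at 0.39, and with the knockdown Hp (-1.80) and Saa3 (-1.15) lie farthest from 0.

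The genes whose levels most resembled those of the called members over the 9 arrays were found by Pearson's r over all 19698 genes. This is a description, since the arrays share groups and replicate numbers. For Il6 they were the death receptor gene Fas (r = 0.936, Spearman's rho = 0.80), Cish (0.933, 0.933) and the immediate early gene Ier2 (0.925, 0.967). For Lif they were Stx11 (0.977, 0.967), the cytokine gene Tslp (0.971, 0.933) and Rgs16, a regulator of G protein signalling (0.969, 0.95). Rgs16 had means of 8.57, 9.92 and 10.44 in unstimulated, TNF-treated and knockdown cells, in the order of Lif, and Fas 10.20, 11.03 and 10.71, in the order of Il6. For Il11 they were Rlim (0.974, 0.979), Acsl4 (0.970, 0.929) and H2-M10.4 (0.949, 0.792), whose group means spanned far less than those of Il11, for example 11.06 to 11.18 for Rlim.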

How the data were processed

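RNA of the 9 samples was hybridised to Affymetrix mouse Gene 1.0 ST arrays. The deposited values are log2 signals that the authors obtained by RMA, which corrects background, quantile normalises arrays and summarises the probes of each transcript cluster; the log base was inferred from the range of 3.36 to 14.61, and the study's reporting summary names the affy package of Bioconductor. Quantile normalisation can dampen a change shared by most genes. Arrays carry no read depth, so their number limits the precision.

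Of 27024 rows, 21319 carried 1 symbol in the platform annotation, which left 19698 genes after taking the brightest row of each. Differences were fitted by the lmFit and eBayes functions of limma 3.58.1 (R 4.3.3, two-sided, with the 9 arrays in 1 model of group means that left 6 residual degrees of freedom), with Benjamini-Hochberg adjustment over all genes. The fit without the block was tested for the TNF comparison on simulated data with independent normal noise for each array. That simulation did not cover the blocked fit. The study's criterion for induction, a Student's test plus a log2 difference above 0.35, is called the methods' t-test here. Its criterion for BAF dependence is a difference above 0.3 with no test (an alternative added after seeing the data). The same test applied to the knockdown (with 0.3) and against unstimulated cells (with 0.35) is an extension made here, called the methods' t-test as extended here. Same-numbered arrays of different groups deviated together (r = 0.2095 to 0.7244 over 9 pairs). Pairs between the control groups lay at 0.5787 to 0.7244, and pairs with a knockdown array lower, at 0.2095 to 0.3876. The 18 pairs of different numbers lay at -0.5662 to 0.01108. Deviations from a group mean sum to 0, which draws these pairs down when same-numbered pairs are positive, so they are no separate support. All same-numbered values exceeded the minimum of 0.1, so the numbers were taken as pairs. A fit with the replicate block (4 residual degrees of freedom) was added. Alternatives left out each array or replicate number, centred medians, dropped dim genes, weighted arrays, fitted an intensity trend or averaged rows.

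The text names every member, called genes and the largest differences of each list, and the 3 closest patterns of each called member. The members and lists were chosen with earlier results of these data known. Promoter windows are from RefSeq (GRCm38.p6), where 8 of 9 members matched (Clcf1 did not). List genes without a measured row were not analysed here.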

Additional observations from a re-analysis of the deposited data

How the results depend on the processing

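Only 3 arrays stand behind each level. The number of members called was 0 after TNF without a block and 2 higher with the replicate block or by the methods' t-test unadjusted (0 to 2 when replicates were left out, meaning single arrays or, in the blocked fit, whole replicate numbers). With the knockdown it was 0 and 2 lower with the replicate block or by the methods' difference alone, which also gave 1 higher (range 0 to 2 lower and 0 to 1 higher when replicates were left out). Against unstimulated cells it was 1 higher, 2 with the block, 0 by the methods' t-test as extended here after adjustment and 0 to 2 when replicates were left out. Genes of the 5 pathway lists called after TNF numbered 3 higher, 5 with the block, 8 and 0 by the methods' t-test before and after adjustment, and 0 to 4 when replicates were left out. With the knockdown they numbered 0 in both directions, 1 higher and 5 lower with the block, 1 higher and 3 lower by the methods' t-test as extended here unadjusted, 3 higher and 8 lower by the difference alone, and 0 to 1 higher and 0 to 4 lower when replicates were left out. Against unstimulated cells they numbered 6 higher and 1 lower, 12 and 4 with the block, 10 and 2 by the methods' t-test as extended here and 0 and 0 after its adjustment, and 0 to 11 (0 to 9 for single arrays) and 0 to 4 when replicates were left out. The cause of these moves was not tested.

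Differences of uncalled members changed sign when replicates were left out: after TNF Il6st (-0.19 to 0.11), Lifr (-0.38 to 0.23) and Osmr (-0.11 to 0.29), with the knockdown Lifr (-0.33 to 0.22), and against unstimulated cells Il6ra (-0.02 to 0.06), Lifr (-0.39 to 0.12) and Osmr (-0.32 to 0.04). Clcf1 against unstimulated cells was 0.00 with array weights. Il6 and Lif after TNF, and Il6 and Il11 with the knockdown, kept their direction in all alternatives run, at 1.55 to 2.17, 1.83 to 2.61, -1.32 to -0.76 and -0.94 to -0.46 when replicates were left out.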
